A study of Drosophila melanogaster with 2 samples.

Results

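Distal intronic summits were the REPTOR peaks that lay deep inside genes, away from any promoter. REPTOR (CG13624) is a bZIP transcription factor that is held in the cytoplasm while the growth kinase TORC1 is active and enters the nucleus when TORC1 activity falls. Long introns of Drosophila genes hold many of the enhancers that direct expression in the embryo, and an intronic enhancer can act on its host gene or on a neighbour. A summit, the base with the highest signal in a peak, was taken as distal intronic where it lay inside a protein-coding gene and in no annotated exon, more than 1000 bp from every annotated transcription start site (TSS), and more than 5000 bp from the nearest TSS of a protein-coding gene. Of the 5321 peaks that the authors retained as reproducible, 410 (7.71%) met this rule. The rule used position alone, so their signals, and their sequences beside flanks, were open to comparison. It limits which genes can be hosts and keeps members away from promoters, which bears on comparisons with other genes and with promoter summits. The classes set beside them were 676 intronic summits at 1 to 5 kb from a coding TSS, 375 intergenic summits and 3784 promoter summits, which lay within 1000 bp of any TSS. The intergenic class had no 5000 bp limit, and 171 of its summits lay over 5000 bp from a coding TSS.

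The peaks came from ChIP-seq on whole Drosophila melanogaster embryos, aged 0 to 24 h and of mixed sex. The flies stably expressed CG13624 with GFP at its C terminus, and the chromatin was pulled down with an antibody against GFP. There was a single group of 2 biological replicates, labelled 1 and 3, with no second genotype, treatment or stage, and a listed control experiment was not analysed here. Each replicate was a pool of whole animals, so a peak was not assigned to a tissue, and the promoter that drives the tagged gene was not given in the labels. No read depth was given in the files, and the peak signals below are values of the authors' caller, used to rank and filter peaks within a list. The tests take peaks or genes as their units and so describe the list at hand, since neighbouring peaks are not independent and replicate variation does not enter them.

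The windows around the summits of the 6 strongest members, and of the strongest member in each of InR and Myc, show the sequence under these peaks (dm6, plus strand, 101 bp). Capitals mark the 21 bases centred on the summit.
CG32486 (chr3L:3060703-3060803): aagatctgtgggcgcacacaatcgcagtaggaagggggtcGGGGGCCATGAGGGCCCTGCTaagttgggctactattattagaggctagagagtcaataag
Glut4EF (chr3R:9883644-9883744): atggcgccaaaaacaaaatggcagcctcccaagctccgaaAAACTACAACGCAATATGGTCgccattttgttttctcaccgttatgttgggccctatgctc
Gug (chr3L:8458255-8458355): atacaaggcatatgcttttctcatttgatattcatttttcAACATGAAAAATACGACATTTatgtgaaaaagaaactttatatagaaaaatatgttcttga
Su(Tpl) and Mi-2 (chr3L:19903217-19903317): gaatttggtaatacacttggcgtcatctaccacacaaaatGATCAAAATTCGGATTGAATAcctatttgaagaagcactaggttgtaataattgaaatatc
JIL-1 (chr3L:11084718-11084818): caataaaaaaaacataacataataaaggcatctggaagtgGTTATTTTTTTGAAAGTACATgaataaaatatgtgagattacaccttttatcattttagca
Raf (chrX:2304065-2304165): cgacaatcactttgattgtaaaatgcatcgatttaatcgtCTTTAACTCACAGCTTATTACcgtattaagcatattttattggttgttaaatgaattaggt
InR (chr3R:21581826-21581926): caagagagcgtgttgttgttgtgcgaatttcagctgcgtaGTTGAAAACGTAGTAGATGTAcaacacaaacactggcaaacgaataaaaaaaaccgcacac
Myc (chrX:3381893-3381993): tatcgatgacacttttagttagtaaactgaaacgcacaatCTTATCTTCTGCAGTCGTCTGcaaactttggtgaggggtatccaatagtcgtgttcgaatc

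The strongest distal intronic summit lay in CG32486 on 3L. Its pooled signal was 746, at rank 60 of 5321, and its replicate signals were 313 in replicate 1 and 443 in replicate 3. The next was in Glut4EF, a gene for a transcription factor, where the overlapping gene CG46467 shares the intron. It had a pooled signal of 591, with 273 in replicate 1 and 318 in replicate 3. Gug encodes the corepressor Atrophin, and its summit had a pooled signal of 516, with 261 and 259 in replicates 1 and 3. A summit of 482 lay where Su(Tpl), for a transcription elongation factor, and Mi-2, for a nucleosome remodeller, overlap. Its replicate signals were 235 and 249. The member in JIL-1, which encodes a histone H3 kinase, had 432, with 194 in replicate 1 and 224 in replicate 3. Raf encodes the kinase that relays signals from Ras to MAP kinase, and its strongest summit had 407, with 157 in replicate 1 and 251 in replicate 3. In all 6 the 2 replicates placed the peak among their first 433 calls, and replicate 3 was the higher in each except Gug.

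Several of the next members by signal lay in genes for regulators of transcription and of signalling. Among them were wdb, for a regulatory subunit of protein phosphatase 2A (388), Lrch (386), gpp, for the histone H3 methyltransferase of the Dot1 type (365), and CG6051 (338). Hr4, which encodes a nuclear receptor of the ecdysone response, held 3 of the 25 strongest members, with pooled signals of 339, 297 and 272. The gene dlp, for a glypican that binds Wnt and Hedgehog ligands, had a member of 325, and rdx, for an adaptor that targets the Hedgehog effector Ci for degradation, had one of 314. Members of 308 and 304 lay in simj, for a subunit of the NuRD complex, and tai, for a coactivator of the ecdysone receptor. The receptor genes fz (Wnt and planar polarity) and EcR (ecdysone) had members of 298 and 293. The list of the 25 strongest was completed by B4 (290), Dad, for an inhibitory Smad (287), sima, for the hypoxia-inducible factor (286), Snoo, for a Ski family protein (276), Hr3, for a nuclear receptor induced by ecdysone (270), and Smr, for a corepressor of the ecdysone receptor (270).

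As a set, the distal intronic peaks were of middling strength. Their pooled signals ran from 78.0 to 746 with a median of 116 and an interquartile range of 91.4 to 158, against a median of 125 for the whole list. Of the 410, 179 (43.7%, exact 95% interval 38.8 to 48.6) lay above the list's median signal, where the background is 50% by construction. Promoter peaks were above it in 51.7% of cases, a difference of -8.09 percentage points for the distal intronic peaks (95% interval -13.1 to -2.99, Fisher's exact test adjusted over 3 classes, p = 0.00637). The shares in intronic peaks at 1 to 5 kb (47.2%) and in intergenic peaks (45.1%) were not told apart from it. Those differences were -3.53 points (-9.57 to 2.58, adjusted Fisher's exact p = 0.389) and -1.41 points (-8.33 to 5.52, adjusted Fisher's exact p = 0.719). Among the first 1000 peaks by pooled signal, 46 were distal intronic, 11.2% of the members beside 18.8% of all peaks.

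**Figure D1:**
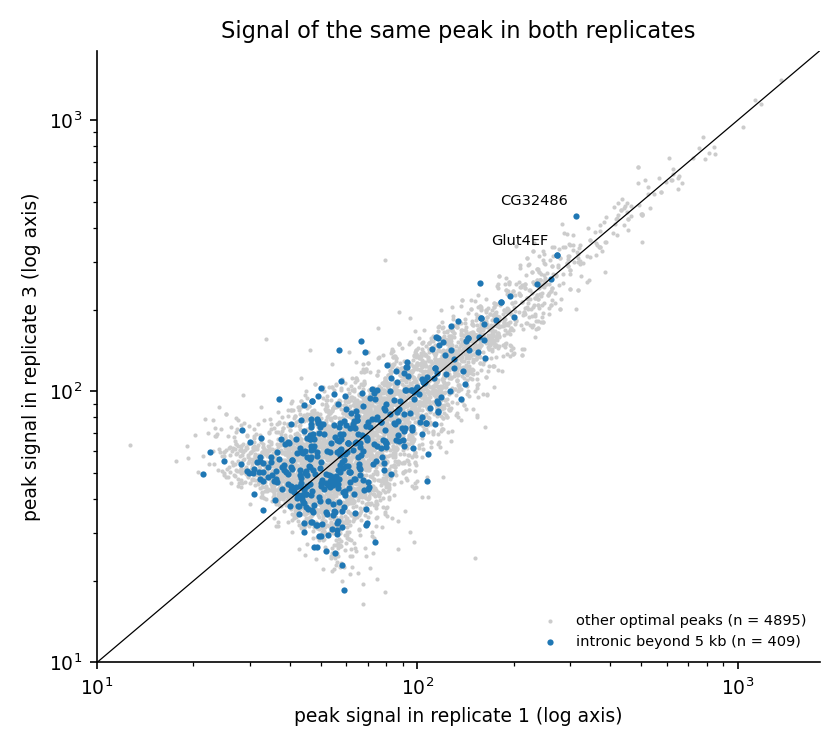
Peak signal in replicate 1 (x) and replicate 3 (y), both on log axes, for peaks of the optimal list with a call in each replicate. Blue points are the 409 distal intronic peaks, grey points are the other peaks, and the line marks equal values. The blue points lie within the grey cloud, and CG32486 and Glut4EF are the highest of them in replicate 3.

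The replicates gave the distal intronic peaks similar but not identical ranks. A call overlapped the peak in both replicates for 409 of 410, the exception being a peak in scrib with a call in replicate 3 alone. Of the members, 305 (74.4%, 69.9 to 78.5) were among the 5321 strongest calls of both replicates, beside 78.6% of all optimal peaks. The share was lower than that of promoter peaks (79.9%, difference -5.53 points, -10.1 to -1.33, adjusted Fisher's exact p = 0.0303). It did not differ detectably from near intronic peaks (74.7%, difference -0.31 points, -5.75 to 4.93, adjusted p = 0.943) or intergenic peaks (78.9%, -4.54 points, -10.4 to 1.40, adjusted p = 0.227) by Fisher's exact test. With only the upper 2660 calls of each replicate counted as strongest, the difference from near intronic peaks was -7.99 points (adjusted Fisher's exact p = 0.0142). Once the log2 ratio of the replicates was centred on its median over all peaks, 17 of 409 members (4.16%) were over 2-fold apart, beside a background of 4.36%. Of these 17, 8 were higher in replicate 1 and 9 in replicate 3. Across the members the replicate signals had a Spearman correlation of 0.63, and 0.74 across all optimal peaks, where peaks share libraries and were selected on both replicates.

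The members that differed most between replicates were mostly weak. The ratio most in favour of replicate 1 was at CG3726, with 59.0 in replicate 1 and 18.5 in replicate 3 (centred log2 ratio 1.71), followed by a member in pnt with 73.9 and 27.7 (1.46) and one in CG4168 with 58.0 and 22.9 (1.38). Members in Grip (1.23) and Pits (1.17) came next. In favour of replicate 3 were tey, with 22.5 and 59.7 (-1.36), Dys (-1.30), a member in kirre (-1.30), one in InR with 57.0 and 142 (-1.27), and Efa6 (-1.17). Where summits lie close together, 1 replicate call can overlap several peaks: 20 members shared both of their replicate calls with another optimal peak, so their replicate values are not separate measurements.

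Far from promoters, REPTOR summits lay in introns more often than the share of intronic sequence. Over 5000 bp from coding TSSs and over 1000 bp from all TSSs there were 604 optimal summits. Of these, 410 were intronic (67.9%, 64.0 to 71.6), against 49.5% of the bases in that zone (1.37-fold, exact binomial test adjusted over 3 classes, p = 2.81e-19). Intergenic sequence held 171 (28.3% against 40.8% of bases, 0.694-fold, adjusted exact binomial p = 3.72e-10) and exons 23 (3.81% against 9.73%, 0.392-fold, adjusted exact binomial p = 6.31e-08). Per megabase this came to 13.9 distal intronic, 7.03 intergenic and 3.96 exonic summits. The optimal list was drawn from 30000 calls on both replicates together, of which 17.7% entered it. Of the 4307 calls at distal intronic positions, 410 entered (9.52%, 8.66 to 10.4), beside 12.4% of near intronic, 10.3% of intergenic and 26.1% of promoter calls.

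The density of intronic summits fell with distance from coding TSSs. It was 51.2 per Mb at 1 to 2 kb, 31.3 at 2 to 5 kb, 22.9 at 5 to 10 kb, 12.3 at 10 to 20 kb, 12 at 20 to 40 kb and 1.55 beyond 40 kb. Intergenic density at the same distances was 27.3, 16.1, 11.4, 10.5, 4.56 and 0.308 per Mb. A split into distance ranges was added after the data were seen, and its shares leave out exonic summits and bases, unlike the shares of the whole zone. Within it the intronic share of summits exceeded that of bases at 5 to 10 kb (74.9% against 59.8%, adjusted exact binomial p = 6.89e-08), at 20 to 40 kb (74.7% against 52.9%, adjusted p = 3.44e-04) and beyond 40 kb, where 9 summits were intronic and 2 intergenic (adjusted exact binomial p = 0.0414). At 10 to 20 kb it did not (60.2% against 56.4%, adjusted exact binomial p = 0.324).

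**Figure D2:**
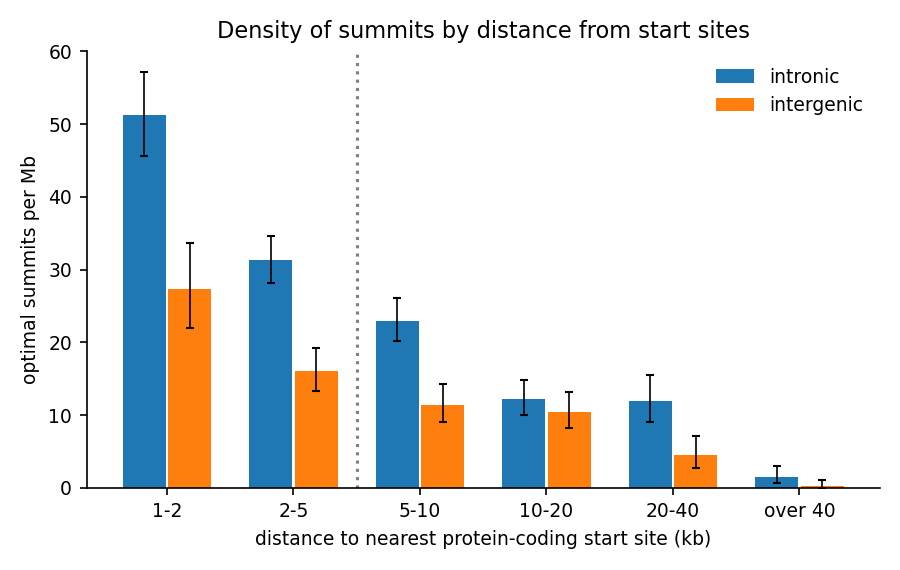
Optimal summits per Mb of intronic (blue) and intergenic (orange) sequence by distance to the nearest protein-coding TSS, in kb. Bars start at 0, whiskers are exact 95% Poisson intervals that cover counting error only, and the dotted line marks the limit of 5 kb. Both densities fall with distance, from 22.9 to 1.55 per Mb for introns beyond the limit, and the intervals of the 2 kinds overlap at 10 to 20 kb and beyond 40 kb.

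The position rule itself places members far from start sites, which favours long introns. Their median distance to the nearest coding TSS was 8682 bp (interquartile range 6397 to 14074 bp, longest 61615 bp), and the median distance to the nearest exon was 3992 bp, with 1 summit within 100 bp of an exon. In the longest-span transcript of the host, the introns that held members had a median length of 19978 bp. Per Mb of the sequence in which a member could lie, density was not highest in the longest introns. It was 7.15 in introns under 5 kb, 20.9 at 5 to 10 kb, 19.1 at 10 to 20 kb, 14.9 at 20 to 40 kb and 10.6 above 40 kb. The nearest coding TSS belonged to a host gene for 288 members (70.2%), and for the others to a neighbour. At the limit of 5000 bp, the 2 nearest members inside it were in Mnt (5005 bp, signal 93.6) and Ac13E (5034 bp, signal 174), and the 2 nearest intronic summits outside it were in Oatp74D (4999 bp, 81.4) and tara (4994 bp, 120). First introns held 131 of the 410 (32%, 27.5 to 36.7), against 20.2% of the sequence in which a member could lie (1.58-fold, exact binomial p = 2.27e-08). Since first introns are closer to TSSs, the same was asked within distance ranges: the share was 39.3% against 29.7% of bases at 5 to 10 kb (adjusted exact binomial p = 0.00559) and 21.7% against 21.7% at 10 to 20 kb (adjusted p = 1), with 23.2% against 14.6% at 20 to 40 kb (adjusted p = 0.171). Beyond 40 kb, 1 of 9 members was in a first intron.

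Distal intronic summits were spread over the large arms. There were 112 on 3R, 89 on X, 74 on 2L, 71 on 3L and 64 on 2R. Per megabase of eligible sequence, meaning sequence that meets the position rule, X (17.4) and 2L (16.5) were higher than 3R (12.8), 2R (12.6) and 3L (12.1). The small chromosome 4 had none in 0.277 Mb, and a count of 0 allows up to 10.8 per Mb there. No member lay in an annotated transposable element, although these made up 8.91% of eligible bases. Repeat-masked bases made up 19.7% of the windows on average, beside 25.4% of eligible bases. Which positions could be mapped uniquely was not tested.

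Some host genes held several members. The 410 summits lay in 257 protein-coding genes, of which 164 held 1 and 93 held 2 or more, and these 93 held 253 of the summits. In all, 179 members had another member within 10 kb and 47 within 1 kb. The 1840 genes with any eligible sequence formed the background, and 257 of these (14.0%) were hosts.

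The gene with the most members was sbb, which encodes a transcriptional corepressor: 10 summits over 25093 bp on 2R, with signals from 83.4 to 263. Next came ftz-f1, for a nuclear receptor that sets competence to respond to ecdysone, with 7 members from 78.9 to 156. Glut4EF and its overlapping gene CG46467 shared 6, from 85.7 to 591. Hr4, Eip75B and tara also held 6 each. Per 100 kb of eligible sequence the order among hosts with 4 or more members differed. There were 64.2 members in Myc, 37.2 in tara, 30.5 in CG6051, 28.1 in sbb, 6.90 in Glut4EF and 2.16 in kirre. Some hosts with fewer members and little eligible sequence were higher than Myc, such as RluA-1 with 3 members (74.7). In Hr4 the signals ran from 102 to 339 over 36571 bp, and no optimal summit lay at the promoters of that gene. Eip75B, for a nuclear receptor induced early by ecdysone, had members from 86.7 to 225 and a stronger promoter summit of 419. In tara, for a regulator of the cell cycle and of chromatin, they ran from 83.9 to 179, close to its strongest promoter summit (171). CG6051, InR, pnt and kirre held 5 each. The Ets factor gene pnt (79.6 to 219) and the adhesion gene kirre (103 to 139), which acts in myoblast fusion, had no promoter summit. Of the 5 genes with 4 members, Raf had signals of 245, 214, 407 and 85.9 in genomic order, beside a strongest promoter summit of 364.

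**Figure D3:**
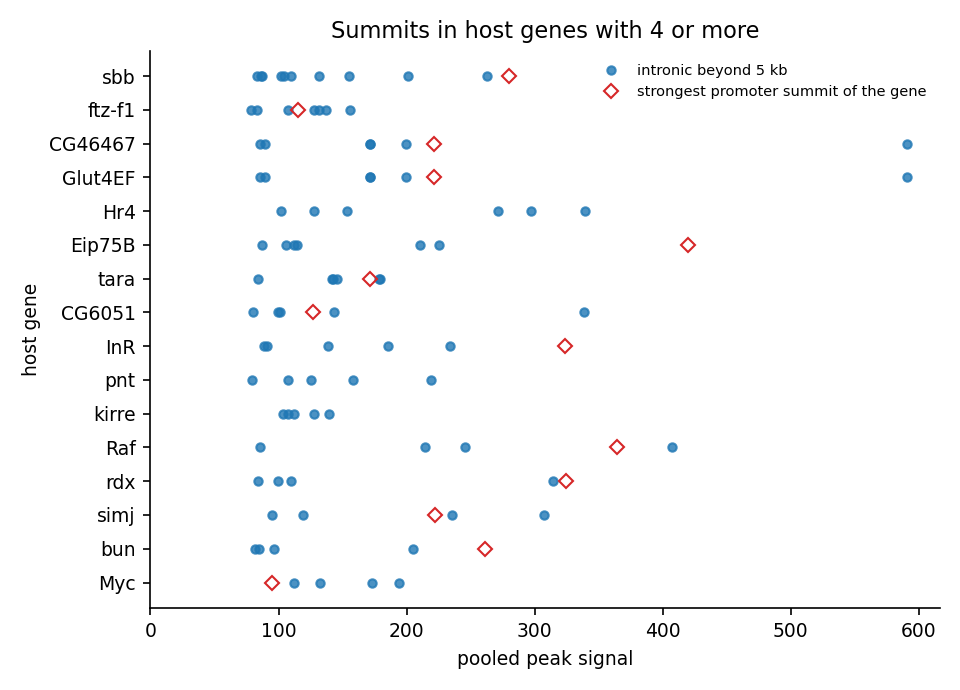
Pooled peak signal (x) of each distal intronic summit (blue) in the 16 host genes with 4 or more of them (y), with the strongest promoter summit of the gene as a red diamond where it has one. CG46467 and Glut4EF overlap and share the same summits. The diamond lies right of all blue points in Eip75B (419 against at most 225), sbb, InR, rdx and bun, left of all of them in Myc (94.8 against at least 112), and between them in the other genes that have one.

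Host genes more often had a promoter summit as well than genes with eligible sequence but no member. A promoter summit was present in 158 of 257 hosts (61.5%, 55.2 to 67.5) and in 552 of 1583 other eligible genes (34.9%, 32.5 to 37.3), with 38.6% among all eligible genes. Hosts also had more eligible sequence (median 20.2 kb against 4.45 kb) and more TSSs (median 2 against 1). In the top of 4 equal groups of eligible genes by such sequence (medians 36.8 kb in hosts and 31.2 kb in others) the shares were 60.1% of 143 hosts and 28.4% of 317 others. Among genes with 1 TSS they were 56.6% of 99 hosts and 26.1% of 849 others, and with 5 or more TSSs 90.0% of 20 and 62.2% of 74. In the 158 hosts with both, the strongest distal intronic summit exceeded the strongest promoter summit in 78 and was below it in 80. The other 99 hosts had no promoter summit, and the median signal of the strongest member was 128 both in these and in the hosts with a promoter summit.

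Genes of nuclear receptors and the ecdysone response held 24 of the 410 members (5.85%). Of the 15 nuclear receptor and ecdysone response genes with eligible sequence, 8 were hosts (53.3%, 26.6 to 78.7), beside 14.0% of all eligible genes. This came to 62.6 members per Mb beside 13.9 per Mb in all eligible genes. Hosts had more eligible sequence than other genes, as given above, and the share of hosts, unlike the density, takes no account of this. The hosts were Hr4, EcR, Hr3, Eip75B, ftz-f1, Eip74EF, Hr39 and Eip63E. The single EcR member had a signal of 293, with 162 in replicate 1 and 133 in replicate 3, and the Hr3 member had 270, with 117 and 148. Hr4 had replicate 1 signals of 139, 45.1, 161, 72.3, 144 and 49.0 in genomic order and replicate 3 signals of 118, 57.4, 177, 78.7, 156 and 76.1. The 3 members of Hr4 that were high in the pooled list were thus the 3 highest in each replicate.

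Growth pathway genes, the group in which REPTOR acts, had little eligible sequence and several members in it. Of the 10 genes of TORC1 and insulin signalling that had any, 5 were hosts (50%, 18.7 to 81.3), with 14 members in 0.0688 Mb. InR, the insulin receptor gene, had signals of 234, 138, 88.3, 91.3 and 185 in genomic order. The first 2 summits lay 200 bp apart and were matched to the same replicate calls (113 in replicate 1 and 121 in replicate 3). Myc, for a growth-promoting transcription factor, had 173, 132, 112 and 194, with replicate 1 signals of 103, 69.7, 61.0 and 91.6 and replicate 3 signals of 69.4, 67.4, 50.4 and 101. All 4 Myc members were above its strongest promoter summit, which had 94.8. The gene foxo, for the forkhead factor restrained by insulin signalling, had members of 116 and 94.5, and Sesn, for sestrin, an inhibitor of TORC1, had 127. REPTOR itself had members of 185 and 104 that shared their replicate calls (106 and 76.1). The flies carried a tagged copy of REPTOR, and added copies of its sequence cannot be told apart from binding there.

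Among the 13 lists, developmental signalling, the longest with 57 genes, had the most hosts. Of 31 with eligible sequence, 17 were hosts (54.8%, 36.0 to 72.7), with 31 members or 51.5 per Mb. The entry yan, another name of the host aop (82.7), matched no gene and was not counted. Besides dlp and fz, the strongest were N, for the Notch receptor (263, with 122 in replicate 1 and 136 in replicate 3), and pnt (219, with 92.7 and 122). Of 19 Hox and segmentation genes, 5 were hosts (26.3%, 9.15 to 51.2). The members in hth, a cofactor gene of the Hox proteins (at most 155), Antp (128), Ubx (104) and cad (97.9) were modest in signal, and 1 in hth lay 53526 bp from the nearest coding TSS. The chromatin and Polycomb list had 3 hosts of 14 (21.4%, 4.66 to 50.8), which were tara, Psc, a Polycomb group gene (213), and jing, for a zinc finger protein (137). This list is not complete: the hosts JIL-1, gpp, Mi-2 and simj, named above, were not counted in it. Nor was the host HDAC4, whose entry Hdac4 matched no gene.

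Lists of neuronal, muscle and cytoskeletal genes stood nearer to the background share of hosts. Axon guidance and adhesion genes had 11 hosts of 47 (23.4%, 12.3 to 38.0), but their long introns gave 9.12 members per Mb. That was below the 13.9 per Mb of all eligible genes. The strongest were in side, whose product guides motor axons (265), ed, for an adhesion molecule (174), Fas3 (150) and Ten-a (140). Ion channel and synapse genes had 3 hosts of 42 (7.14%, 1.5 to 19.5), Ca-alpha1T (116), Syn (95) and nAChRalpha1 (82.2). Their density of 3.03 members per Mb was also below that of all eligible genes. Muscle structure genes, at 13.4 members per Mb, had 2 hosts of 17 (11.8%), how (161) and Zasp52 (95.8). The muscle entry duf, another name of the host kirre, matched no gene, so kirre was counted with the adhesion genes alone. RNA-binding genes had 5 hosts of 22 (22.7%), led by brat, for a translational repressor (178), how, sm (125) and Rbfox1 (114.8). The list of cytoskeleton and polarity genes had 4 hosts of 27 (14.8%) and 21.5 members per Mb. Its hosts were Myo10A (207), scrib (200), cv-c (194) and dnc (164), though dnc encodes a cAMP phosphodiesterase. Of the clock genes 2 of 6 were hosts, cwo (243) and Pdp1 (161), and of 3 eligible energy and lipid genes bmm, for a triglyceride lipase, was one (99.7). None of 5 eligible stress genes was a host, which leaves an interval of 0 to 52.2%. The lists were described by counts alone, and their genes were chosen with results of these data known. Differences between lists in distance to TSSs, and for shares of hosts in the length of eligible sequence, were not adjusted for.

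**Figure D4:**
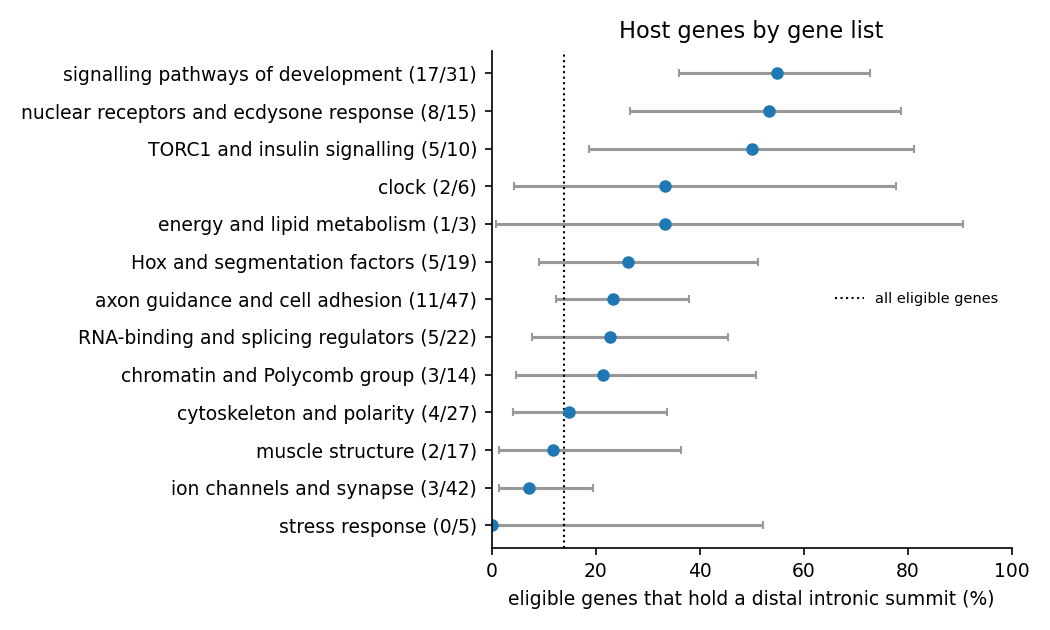
Share of eligible genes in each of 13 gene lists that hold a distal intronic summit, in percent, with exact 95% intervals and the numbers of hosts and eligible genes in brackets. The dotted line marks all eligible genes (14.0%), without adjustment for the length of eligible sequence. Developmental signalling (54.8%), ecdysone response (53.3%) and TORC1 and insulin genes (50%) have the highest shares, and the intervals are wide.

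The windows under the summits had less GC than their flanks on average. GC content averaged 35.6% ± 8.14 (SD over 410 windows of 101 bp), against 41.4% ± 9.25 in equally long windows placed 500 bp to 1 side, drawn at random. The other classes also had less GC at summits than at flanks. Near intronic summits averaged 35.6% against 41.1%, intergenic 37.0% against 40.8% and promoter summits 40.1% against 44.6%. The presence of 30 motifs within 50 bp of the summit, on either strand, was compared with the same flanks by an exact McNemar test. After adjustment over the 30 motifs, 2 passed (6.67%), and 4 had an unadjusted p under the threshold. The letters of motifs can overlap, and a match describes letters in the window.

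The insulator motif of CTCF, a zinc finger protein that binds domain borders, was searched as AGATGGCGC or AGGTGGCGC. It was present at 10 members (2.44%, 1.18 to 4.44) and at none of the 410 flanks, a count whose exact 95% interval is 0 to 0.896% (adjusted exact McNemar p = 0.0374). In every alternative that changed the windows or the members, apart from the one without replicate 3, the excess remained positive but missed the threshold (adjusted p from 0.0586 to 1). The motif had been noted at distal summits in earlier results of these data, so this is no independent support. It was present at 0.592% of near intronic, 3.47% of intergenic and 1.14% of promoter summits, and none of these differed from the distal intronic share by Fisher's exact test (adjusted p from 0.107 to 0.867). Of the 10 members, 5 lay in 4 ecdysone response genes, namely EcR, Eip75B, Hr4 and Eip74EF, while that list held 24 of the 410 members (5.85%). The other 5 were in Tet, for a DNA dioxygenase homologue, retn, for an ARID domain factor, Antp, bun and Syn. All of these except EcR and retn are printed with the motif in capitals (dm6, plus strand).
Eip75B (chr3L:17988265-17988365): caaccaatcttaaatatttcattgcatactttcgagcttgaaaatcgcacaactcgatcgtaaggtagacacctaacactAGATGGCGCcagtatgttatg
Eip75B (chr3L:18019763-18019863): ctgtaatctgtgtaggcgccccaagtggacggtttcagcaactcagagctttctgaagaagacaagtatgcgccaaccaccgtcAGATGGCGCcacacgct
Hr4 (chrX:1953095-1953195): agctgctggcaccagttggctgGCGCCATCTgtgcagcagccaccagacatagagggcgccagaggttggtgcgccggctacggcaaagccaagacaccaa
Tet (chr3L:2851954-2852054): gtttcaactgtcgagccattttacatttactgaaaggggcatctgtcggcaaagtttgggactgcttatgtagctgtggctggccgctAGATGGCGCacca
Eip74EF (chr3L:17597058-17597158): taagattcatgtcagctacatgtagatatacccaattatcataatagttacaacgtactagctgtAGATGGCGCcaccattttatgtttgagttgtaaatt
Antp (chr3R:6912392-6912492): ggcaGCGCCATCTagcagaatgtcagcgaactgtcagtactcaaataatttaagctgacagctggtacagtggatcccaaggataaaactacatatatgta
bun (chr2L:12521243-12521343): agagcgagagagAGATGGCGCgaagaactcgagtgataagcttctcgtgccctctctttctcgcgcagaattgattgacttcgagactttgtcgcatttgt
Syn (chr3R:10203716-10203816): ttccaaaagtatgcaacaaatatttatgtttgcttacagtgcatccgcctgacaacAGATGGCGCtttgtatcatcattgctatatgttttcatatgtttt

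The 5 strongest members with the CTCF letters had similar signals in both replicates, the widest gap being that at EcR given above. The Eip75B members had pooled signals of 225 (112 in replicate 1 and 112 in replicate 3) and 210 (106 and 108), the Hr4 member 154 (72.3 and 78.7) and the Tet member 118 (59.5 and 58.8). In Eip75B the 2 windows lay 31498 bp apart, at opposite ends of the run of 6 members, and in both the motif read in the same direction.

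Repeats of CA, searched as CACACACA, were rarer at summits, with 5 members (1.22%) against 21 flanks (5.12%, adjusted exact McNemar p = 0.0374). The GATA motif (AGATAA or TGATAA) was at 72 summits (17.6%, 14.0 to 21.6) and 49 flanks (12%), which did not pass after adjustment (exact McNemar p = 0.0346, adjusted 0.260). Motifs known for bZIP factors were rare: AP-1 (TGACTCA or TGAGTCA) was at 4 members and 3 flanks, the cAMP response element TGACGTCA at 0 and 2, and TTACGTAA at 2 and 2. The forkhead motif GTAAACA was at 17 members (4.15%) and 10 flanks (2.44%, adjusted exact McNemar p = 0.929).

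The largest sequence differences were from promoter summits, a class that the position rule sets apart from the members. The DRE motif TATCGATA, common at promoters of housekeeping genes, was at no distal intronic summit (exact 95% interval 0 to 0.896%) and at 4.84% of promoter summits (adjusted Fisher's exact p = 4.68e-07). The motif of the insulator protein BEAF, CGATA followed by any base, overlaps the DRE and was at 9.27% against 26.2% (adjusted Fisher's exact p = 1.82e-14). GATA letters were more frequent than at promoters (17.6% against 11.9%, adjusted Fisher's exact p = 0.0282), and so were runs of 8 A (12.9% against 5.34%, adjusted p = 1.34e-06). CAGCTG was less frequent (2.93% against 6.98%, adjusted Fisher's exact p = 0.0233), and so was the core promoter motif GGTCACACT (0.244% against 2.25%, adjusted p = 0.0404). At the members' own flanks DRE and GGTCACACT were at 0 windows and BEAF at 43 (10.5%), so these motifs were not rarer at the summits than close by. Since members lie over 1000 bp from every TSS, fewer promoter motifs than at promoter summits follows in part from how the classes were defined. No motif passed this test against near intronic or intergenic summits, and GC content differs between the classes as given above.

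**Figure D5:**
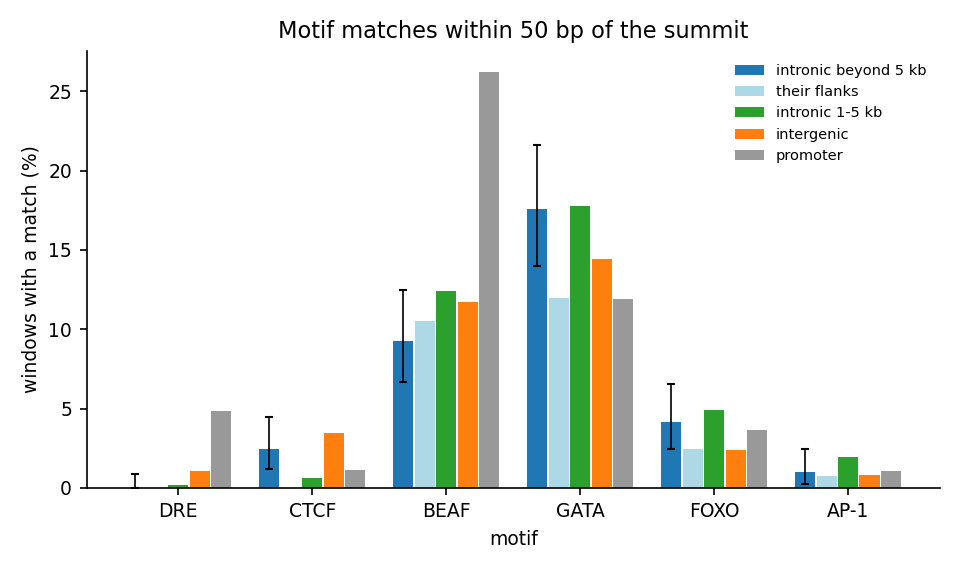
Share of 101 bp windows with a match (y, in percent) for 6 motifs at distal intronic summits (dark blue), at their flanks (light blue), and at near intronic, intergenic and promoter summits. Whiskers are exact 95% intervals for the distal intronic summits. Promoter summits stand apart for DRE (4.84% against 0) and BEAF (26.2% against 9.27%), while GATA letters are at 17.6% of distal intronic and 11.9% of promoter windows.

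Of all 2080 joined 6-mers, 6 passed at the members (0.288%), and 256 had an unadjusted p under the threshold. More frequent at summits than at flanks were AAAATA (32.9% against 18.5%, adjusted exact McNemar p = 0.00796), ATTTTA (24.1% against 12.9%, adjusted p = 0.0423) and TAGGCA (5.61% against 0.732%, adjusted p = 0.0423). Less frequent were GCAACC (0.976% against 6.83%, adjusted p = 0.00877), CCAGAA (1.95% against 8.05%) and GGAGCC (0 against 3.41%), the last pair with an adjusted exact McNemar p of 0.0423. Other flanks gave different counts: with flanks 1000 bp away none of the 2080 passed, with 203 at an unadjusted p under the threshold. TAGGCA was at 23 members and 3 of the flanks at 500 bp, but at 11 of those at 1000 bp. At near intronic summits it was at 3.11% and at their flanks at 2.66%. AAAATA and ATTTTA were also more frequent at summits than at flanks in the other classes, where the difference was not tested. For AAAATA the shares were 32.4% against 22.8% (near intronic), 27.5% against 22.7% (intergenic) and 28.7% against 17.8% (promoter). For ATTTTA they were 22.2% against 13.8%, 20% against 16.5% and 20.1% against 12.2% in the same order.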

How the data were processed

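ChIP-seq peak lists on dm6 were used as deposited by the authors. Per the deposited notes, calls were made for each replicate against a control, then on both replicates together, and filtered by irreproducible discovery rate (IDR) into the optimal list. For the aligner and caller, names and versions were not given in the sources used here. No dm3 list was used. The signal column holds the deposited signal of the authors' caller, and the summit column is the deposited offset from the peak start, in bp. Read depth is unknown, so precision rests on numbers of peaks. Calls in a replicate were matched to a peak by an overlap of at least 1 bp, taking the strongest.

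Gene models came from Ensembl release 115 (BDGP6, 13945 protein-coding genes) and sequences from the RefSeq Release 6 genome, which are the dm6 assembly. Coordinates are 1-based. Eligible sequence is all sequence meeting the position rule. Exact binomial, Fisher and McNemar tests were two-sided, with Benjamini-Hochberg adjustment within each family and a threshold of 0.05 (Python 3.11.15, SciPy 1.17.1, NumPy 2.4.6, pandas 2.3.3). Shares carry Clopper-Pearson intervals, and differences of shares Newcombe intervals, at 95%, for counting error only. The motif and 6-mer tests were tested on simulated data with more planted sites than the CTCF matches seen here. The simulated summit and flank windows had the same base composition, unlike the real ones, so effects of GC content were not tested.

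The members, 30 motifs and 13 gene lists were chosen with earlier results of these data known. In the lists, 13 entries matched no single gene, among them Hdac4, duf and yan, which are names of the hosts HDAC4, kirre and aop. Named were the 25 strongest members, the 2 nearest the limit on each side, the 5 largest replicate ratios each way, hosts with 4 or more members (at most 12), up to 4 hosts per list by their strongest member, and the 5 strongest members with a CTCF motif. The other CTCF hosts, the remaining ecdysone hosts and foxo were named after their values were seen. The excess of CTCF letters over flanks is given in percentage points in the alternatives, in place of the planned ratio, because no flank held them.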

Additional observations from a re-analysis of the deposited data

How the results depend on the processing

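The position results held best, apart from first introns within distance ranges. With 10 kb as the limit, 171 members remained by rule, and 179 among peaks above the list's median signal. The intronic share against bases passed in every other alternative run. In the distance ranges added after the data were seen, which leave out exons, it was 1.07-fold at 10 to 20 kb (not passed). First introns passed at 5 to 10 kb (1.33-fold, 239 members). They were at 0.998-fold at 10 to 20 kb (106 members), 1.59-fold at 20 to 40 kb (56) and 2.09-fold beyond 40 kb (9), none of which passed. The share of hosts with a promoter summit was 43.6% among peaks above the median and 54.9% with promoters of 500 bp, both of which remove promoter summits by construction. The share of members strong in both replicates, less that of near intronic peaks, was 0.0683 points among peaks above the median, between -2.32 and 1.97 points without one replicate, and -7.99 points with fewer calls counted as strongest.

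The sequence results were the least stable, and the cause was not tested. The number of motifs that passed was 0 with the 10 kb limit, with the middle of the peak as centre, among peaks above the median, with windows of 100 bp to each side and with flanks 1000 bp away (3, 2, 0, 3 and 1 at an unadjusted p under the threshold), and 0 to 2 without one replicate. The CTCF excess in the same order was 3.51, 2.20, 2.23, 2.68 and 2.44 points (adjusted exact McNemar p = 0.312, 0.117, 1, 0.103 and 0.0586), and 2.60 to 2.74 points without one replicate. The 6-mers that passed numbered 0 at 10 kb, 1 among peaks above the median, 56 with the wider windows, 0 with the farther flanks, and 3 to 6 without one replicate.

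No paired analysis was possible because there was a single group. Depth is unknown, the replicates are 2, and the control data were not analysed here.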
